A study of Danio rerio with 24 samples.

Results

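The clutch of mother 4 consisted of 5 mature, unfertilized zebrafish eggs, taken as the 5 samples whose titles name mother 4, out of 24 eggs measured one by one. The other 19 eggs came from mother 1, mother 2 and mother 3, with 5 eggs each, and from mother 5, with 4 eggs. All 5 mothers were sisters of the same wild-type ABTL strain, and no treatment was compared. Each female was kept beside a male from the day before, briefly anesthetized with Tricaine and squeezed to obtain the eggs. Egg water was then added to the clutch. The age of the fish is not given in the sources used here. The comparison asks which maternal transcripts set the eggs of 1 mother apart from those of her sisters. It holds a single mother on one side, so what is particular to this female cannot be told apart from what is particular to the day, tank or handling of her clutch. Eggs of 1 mother share their source, and the p-values below therefore measure the spread between the eggs of these clutches. A permutation over the 5 mothers could not go below p = 0.2.

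Maternal RNA is made by the mother's genome while the oocyte grows and is stored in the egg. A fertilized fish egg first divides on these stores alone, since the embryo's own genome is silent at first, and the stored transcripts are cleared once it is switched on. The store holds messages for general cell machinery, for germ plasm and axis determinants that act right after fertilization, and, in fish, for proteins of the egg coat that the oocyte itself can make.

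Each array carried Cy3-labelled RNA of 1 egg and a Cy5-labelled common reference, and the values are log2 Cy3 signals on 1 normalized scale. Of 88754 probes, each designed to the 3′ end of 1 transcript, 26501 were expressed in this set of arrays. The 5 arrays of mother 4 were among the brighter ones before normalization, with a mean raw log2 Cy3 signal of 7.11 to 7.34 against 6.60 to 7.48 for the others, and with 23981 to 25138 probes called present against 17983 to 25309. The reference channel of the same arrays, where no clutch should stand out, gave 2 transcripts that passed the test for mother 4 and 1 that did not overlap. The egg transcripts npm2b, zp2.3 and piwil1 were well above background on all 24 arrays. The first 3 principal components of the eggs held 28.21%, 23.39% and 12.65% of the variance.

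The clutch of mother 4 differed from the mean of the 4 other clutches in 8965 of 26501 expressed transcripts (33.8%) in limma's moderated test with Benjamini-Hochberg adjustment at 0.05. Of these, 4878 were higher (18.4%) and 4087 were lower (15.4%), so that 54.4% of the calls were higher. The split depended on how the arrays were scaled, with 65.9% of the calls higher after a loess fit of Cy3 over Cy5, 97.7% when arrays were centred on the median of all probes and 42.6% when they were centred on the median of the expressed transcripts. Most of the differences were small. Only 308 higher transcripts (1.16%) and 202 lower ones (0.762%) reached a 2-fold difference. With the mean raw signal of each array as a covariate, 3972 transcripts were higher and 4222 lower.

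A narrower set was formed by the transcripts whose values did not overlap at all between mother 4 and the rest, here called apart. In 496 transcripts (1.87%) all 5 eggs of mother 4 lay above all 19 other eggs, and in 342 (1.29%) all 5 lay below, which together made 838 (3.16%). All 838 also passed the test, which uses the same values and is therefore no separate evidence. Of the higher ones, 84 were present on fewer than 4 arrays of the other clutches and so counted as expressed only through mother 4, which bound them to differ, and 59 of the lower ones were present on no array of mother 4. The empty interval between the clutch and the nearest other egg was mostly narrow, with a median of 0.126 on the log2 scale, and it exceeded 2-fold for 12 higher and 16 lower transcripts. By the same rule mother 1 had 188 transcripts apart (0.709%), mother 2 had 1054 (3.98%), mother 3 had 1117 (4.21%) and mother 5 had 496 (1.87%). Mother 4 therefore held the middle place of the 5 in the number of transcripts that were hers alone, and the share of expressed transcripts that passed the test followed the same order, from 20.4% (mother 1) and 23.9% (mother 5) through 33.8% (mother 4) to 36.1% (mother 2) and 37.0% (mother 3).

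**Figure D1:**
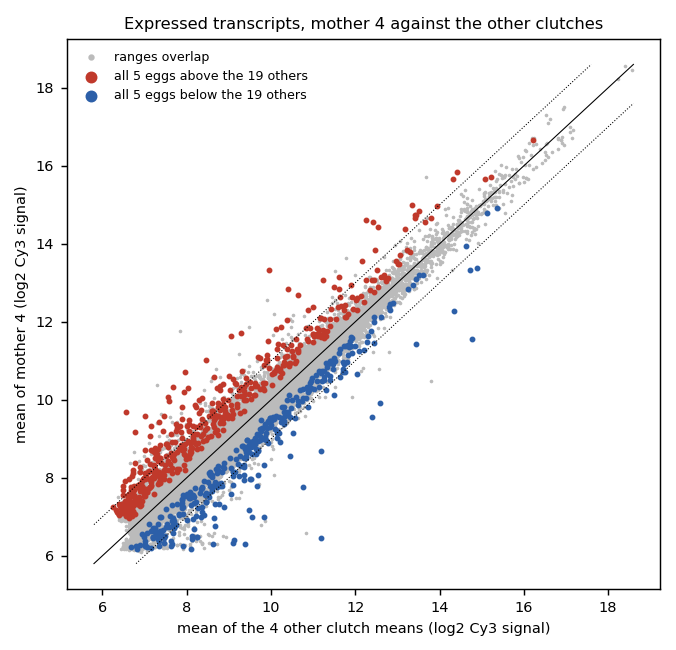
Each point is 1 of the 26501 expressed transcripts, with the mean log2 Cy3 signal of the 4 other clutches on the horizontal axis and the mean of the 5 eggs of mother 4 on the vertical axis. Red points are the 496 transcripts that were apart and higher, blue points the 342 that were apart and lower, and the dotted lines mark a 2-fold difference, which most coloured points do not reach.

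The calls were spread over the whole range of levels. When the expressed transcripts were split into 5 equal groups by their mean over all eggs, between 15.9% and 20% were higher and between 13.4% and 17.1% were lower in mother 4 in each group. A slide held 4 arrays, and mother 4 had 1 egg on each of 5 of the 6 slides. Set against the other arrays of its own slide, her egg was higher on all 5 slides in 4104 of the 4878 higher transcripts and lower on all 5 in 3289 of the 4087 lower ones. These transcripts were called on the same values, so the counts are no separate evidence. Over all 26501 expressed transcripts, 5376 were higher on all 5 slides and 4563 were lower on all 5. The 496 and 342 transcripts that were apart kept their direction on every slide, which follows from how they were defined.

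Mother 4 stood nearer to mothers 1 and 5 than to mothers 2 and 3. The root mean square difference between her eggs and those of mother 5 was 0.436 on the log2 scale, and to mothers 1, 2 and 3 it was 0.505, 0.597 and 0.596, while her own eggs differed from each other by 0.271. For each of her 5 eggs the nearest egg of all was another egg of the same clutch. The reverse did not always hold, since mother 1 egg 1 was nearest to mother 4 egg 4. Its mean difference was 0.432 from mother 4 and 0.467 from its own clutch. Compared 1 clutch at a time, mother 4 differed from mother 5 in 4895 transcripts (18.5%), from mother 1 in 6225 (23.5%), from mother 3 in 9604 (36.2%) and from mother 2 in 10484 (39.6%). At least 2-fold differences made up 571 (2.15%), 568 (2.14%), 1313 (4.95%) and 1352 (5.1%) of these contrasts in the same order. Without mother 1 egg 1 there were 694 against mother 1. Of the 26501 expressed transcripts, 798 were higher in mother 4 than in each of the 4 other clutches, and 492 were lower than in each. Another 1209 were higher than at least 1 clutch and lower than at least 1. These 3 counts were not made for the other mothers.

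The eggs of mother 4 resembled each other more than those of most other clutches did. The median within-clutch SD of an expressed transcript was 0.143 for mother 4 and 0.128 for mother 5, whereas mothers 3, 2 and 1 had values of 0.191, 0.198 and 0.209. The lowest and the highest egg of the clutch differed by more than 2-fold in 2.12% of the expressed transcripts in mother 4. That share was 1.04% in mother 5, which had 4 eggs in place of 5, and between 6.44% and 7.17% in mothers 1, 2 and 3. The arrays of mothers 4 and 5 were also more even in brightness before normalization. Their mean raw log2 Cy3 signals were 7.11 to 7.34 and 6.76 to 7.08. For mothers 1, 2 and 3 these were 6.66 to 7.19, 6.60 to 7.48 and 6.69 to 7.42. The part of array brightness in the spread was not tested.

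Gene symbols could be attached to 3313 of the expressed probes, through lists that came with the study and that do not hold all probes. Of these lists, 1 was chosen by the study because clutch ranges of its transcripts did not overlap on these same eggs, so its members were bound to differ more often. It is called the mother-specific list here, and its counts are not independent evidence. Another list held genes that differed between mothers in the study's analysis of variance on the same eggs. These were nearly all genes the study called expressed. Counts outside the mother-specific list are therefore not free of such a choice either. The lists held 3648 expressed probes, with or without a symbol. Of the 2362 found through the other lists, 498 were higher and 397 lower in mother 4 (37.9% in all), close to the 33.8% over all expressed transcripts, and 52 and 39 were apart (3.85%). Of the 1286 found only through the mother-specific list, 498 were higher and 443 lower (73.2%), and 159 and 33 were apart (14.9%). In all, 263 transcripts with a symbol were apart, 195 higher and 68 lower. Of the 15 leading higher and 15 leading lower genes, 12 and 10 came from the mother-specific list.

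The widest gap among the higher genes belonged to si:ch211-37p17.5, which the reference annotation names opn7d, a member of the opsin family of light-sensing receptors. On the log2 scale its 5 eggs of mother 4 measured 9.77, 9.76, 9.48, 9.64 and 9.81. The 19 other eggs ran from 6.23 to 6.84 with a median of 6.57, so no egg of the 4 other clutches came near. The difference of the measured means was 3.12 (SE 0.07), or 8.7-fold. The probe was present on no array of the other clutches, although well above background on 10 of the 19, and thus counted as expressed only through mother 4, so no p is given for it. The gene lies on Zv9 at chr8:49489257-49506828.

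The second gene was cecr1a, listed in the reference as ADA2, an adenosine deaminase of the secreted type. Its mother 4 eggs measured 10.28, 10.32, 10.31, 10.43 and 10.32, a narrow band with an SD of 0.06, and the other eggs ran from 6.28 through a median of 7.08 to 8.86. The other clutches were themselves split, with means of 6.71 and 6.65 for mothers 1 and 2 and of 8.63 and 8.73 for mothers 3 and 5. The difference was 2.65, a 6.27-fold higher level.

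Sister clutches at an intermediate level recurred among the leading genes. For si:dkey-149f22.2 the eggs of mother 4 measured 9.63, 9.51, 9.80, 9.76 and 9.27 against 6.21 to 8.81, and the highest other clutch was mother 5 with a mean of 8.49 while the 3 others had means between 6.27 and 6.84. For zgc:65895 the eggs measured 10.36, 10.57, 10.05, 9.97 and 10.59 against 6.68 to 9.95, and here mother 1 was next with a mean of 9.64, so that the gap to its highest egg was hardly open. For spata2l, a relative of the spermatogenesis-associated gene spata2, the eggs lay within 8.34 to 8.42 and mother 2 was next with a mean of 7.91, the 3 other clutches having means of 6.34 to 6.46.

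In other leading genes the 4 sisters were alike and mother 4 alone was displaced. For rnasekb, a small ribonuclease, the eggs of mother 4 measured 9.39, 9.72, 9.51, 9.66 and 9.23 and the other clutch means lay between 7.75 and 8.02. For zgc:171426 they measured 13.14, 12.9, 12.98, 13.34 and 12.99 with other clutch means of 11.01 to 11.37, and for wu:fi42e03 they measured 12.35, 11.85, 12.25, 12.15 and 11.58 with means of 10.13 to 10.56. For pskh1, a protein serine kinase, the difference was 2.08, with other clutch means of 6.97 to 7.70. These were differences of 3.07-fold to 4.24-fold.

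The remaining leading higher genes were si:dkey-253d23.7, named znf990 in the reference as a zinc finger gene (difference 2.57), si:dkeyp-20e4.8 (2.35), zgc:136410 (1.91), bglap, which encodes the bone matrix protein osteocalcin (1.75), stoml1 of the stomatin family (1.67) and the egg coat gene zpcx (1.59). The level of si:dkeyp-20e4.8 was 14.60 in mother 4 and 10.53 in mother 3, with the 3 other means between 12.44 and 13.06. The 15 leading higher genes were chosen as apart on these same eggs, so they were nearly bound to differ from each other clutch. All 15 did so in limma's pairwise contrasts, which is no further evidence. The least secure was bglap against mother 5, with an adjusted p of 0.00831 in these contrasts.

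**Figure D2:**
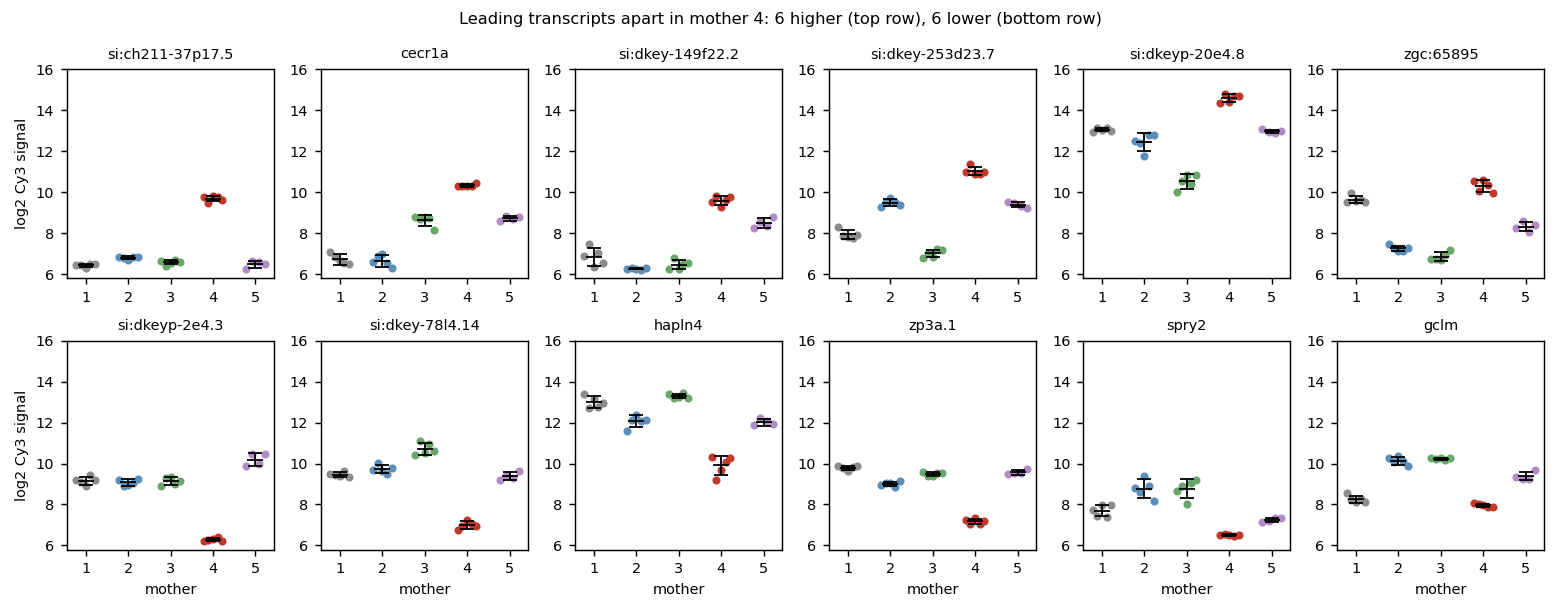
Log2 Cy3 signal of every egg for leading genes that were apart in mother 4, with 1 point per egg, the clutches side by side and bars for the mean and SD of each clutch. The eggs of mother 4 sit above or below every other egg in each panel, with wide distances for si:ch211-37p17.5 (9.48 to 9.81 against 6.23 to 6.84) and si:dkeyp-2e4.3 (6.22 to 6.39 against 8.89 to 10.47).

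Among the lower genes, si:dkeyp-2e4.3 lay near the floor of the scale, at 6.39, 6.23, 6.28, 6.22 and 6.33 in mother 4 against 8.89 to 10.47, a difference of -3.11. The probe of si:dkeyp-2e4.7, which is listed as possibly binding the transcript of si:dkeyp-2e4.3 as well, was 0.68 higher in mother 4. The 2 probes thus differed in opposite directions. The gene si:dkey-78l4.14, named micos13 in the reference and a subunit of the complex that shapes the inner mitochondrial membrane, measured 7.07, 6.77, 6.97, 6.93 and 7.24 against 9.21 to 11.12. Its difference was -2.83, and the clutch means of the 4 sisters ranged from 9.39 to 10.73.

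Lower at a level that stayed well measurable were hapln4, a link protein that binds hyaluronan, and parn. The hapln4 eggs of mother 4 measured 10.08, 10.32, 9.18, 10.28 and 9.67 against 11.61 to 13.43, a difference of -2.69 and a larger spread within the clutch than for the other leading genes (SD 0.48). The gene parn encodes a ribonuclease that shortens poly(A) tails, a step by which stored maternal messages are silenced in vertebrate oocytes. Its eggs measured 13.44, 13.46, 13.40, 13.09 and 13.51 against 14.35 to 15.60, so it remained an abundant transcript at 2.86-fold less.

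The other lower genes included gclm, the modifier subunit of the enzyme that starts glutathione synthesis (-1.55), spry2, an inhibitor of receptor tyrosine kinase signalling (-1.61), zgc:77041, named TMEM208 in the reference (-1.49), si:rp71-45k5.2 (-1.46), and zgc:123068, named ifi27.1 and known from interferon responses (-1.37). They also included the glycolipid transfer protein gene gltpb (-1.27), foxq1b, a forkhead transcription factor (-1.14), and a transcript known by a clone name only (-1.29). The probes of spry2, zgc:77041 and foxq1b were present on no array of mother 4. Their means there, 6.51, 6.68 and 6.32, lay near the floor of the scale. For gclm the eggs of mother 4 measured 7.88, 8.07, 8.0, 7.85 and 7.97, and mother 1 was close with a mean of 8.25 while the 3 other means lay between 9.39 and 10.24. The cathepsin gene ctskl was not well above background in any egg of mother 4 and was well above it in all 19 others, a level at least 2.5-fold lower. Of the 15 leading lower genes, 14 were lower than in each of the 4 other clutches in limma's pairwise contrasts, and foxq1b missed the threshold against mother 5 with an adjusted p of 0.0972. These genes too were chosen as apart on the same eggs, so the 14 are no further evidence.

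Which direction lost calls depended on the scaling. Centring on the median of the expressed transcripts gave 3184 higher and 4290 lower transcripts, against 4878 and 4087 in the main fit. With arrays centred on the median of all probes, which shifted the median transcript up by 0.68 in mother 4, the values relative to that shift were -1.37 for parn, -1.48 for gclm, -1.22 for gltpb, -1.47 for zgc:123068, -1.43 for si:rp71-45k5.2 and -1.19 for the clone-named transcript, and these 6 no longer passed the test. None of the 86 genes named by rule passed the test in the opposite direction under any setting tried. Values near 0 that did not pass could change sign. The median of the 16 germ line members outside the mother-specific list was -0.029, and 0.096 with arrays centred on the expressed transcripts. Genes named as further examples were not followed through the settings.

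The egg coat of fish is built from zona pellucida proteins, and members of this family went in both directions in mother 4. All 6 measured members came from the mother-specific list and all 6 passed the test, 3 higher and 3 lower, where 73.2% of that whole list passed. The gene zpcx measured 9.72, 9.58, 10.07, 10.13 and 9.56 in mother 4 and 7.30 to 9.0 in the rest. The gene zp2l1 measured 12.61, 12.50, 12.67, 12.75 and 12.62 against 10.82 to 12.22, a difference of 1.00, and zp2.3 measured 14.79, 14.75, 14.46, 14.56 and 14.81 against 13.07 to 14.38, a difference of 0.87. These 3 were apart and higher.

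Against them stood zp3a.1, which was apart and lower. It measured 7.04, 7.26, 7.04, 7.19 and 7.35 in mother 4, and the 4 sisters had clutch means of 9.0 to 9.80 with SDs of 0.09 to 0.13, so the clutch lay 4.89-fold below a tightly kept level. The difference for zp3.2 was -0.98, but its values overlapped, since the mean of mother 1 (13.26) was close to that of mother 4 (13.32) and the difference came from mothers 2, 3 and 5, with means of 15.34, 14.56 and 14.02. The eggs of mother 4 were also not alike for zp3.2, at 13.65, 12.46, 13.64, 13.20 and 13.65. The probe of zp2l2 was not well above background in any egg of mother 4, and its levels were high in mothers 2 and 3 alone, with clutch means of 7.17 in both.

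**Figure D3:**
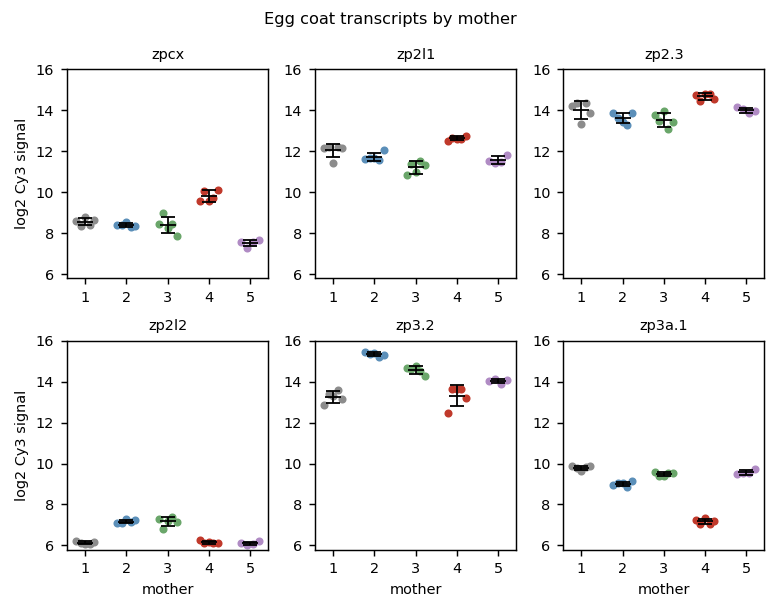
Log2 Cy3 signal of every egg for the 6 egg coat genes, 1 panel per gene, with the 5 clutches side by side and bars for the mean and SD of each clutch. The eggs of mother 4 lie above all others for zpcx, zp2l1 and zp2.3, below all others for zp3a.1, and among those of at least 1 other clutch for zp3.2 and zp2l2.

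Among the genes of the germ line and of the oocyte's own programme that could be named, none was apart. Some central members of the list, such as buc and dazl, could not be named among the expressed probes. Of 16 members named outside the mother-specific list, 3 were higher, 4 were lower and 9 did not pass the test, with a median difference of -0.029 against 0.006 over all expressed transcripts. That made 43.8% called, with 33.8% over all expressed transcripts. The higher ones were npm2b, a nucleoplasmin that remodels sperm chromatin (0.59), trim36, which acts in dorsal axis formation in frog (0.56), and tdrkh, a Tudor protein of the piRNA pathway (0.51). For npm2b the eggs of mother 4 measured 14.31, 14.60, 14.48, 14.70 and 14.57, so that 4 of the 5 lay above the highest other egg, at 14.45.

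The lower ones were sycp1, a component of the synaptonemal complex (-1.20), nanos1 of the Nanos family of germ cell regulators (-0.41), pl10, a DEAD-box helicase gene (-0.32), and rbpms2b, an RNA-binding protein of the oocyte's germ plasm (-0.24). The probes of sycp1 and nanos1 were present on no array of mother 4. The difference in sycp1 rested on the sisters, with means near the floor for mother 1 (6.38) and mother 4 (6.41). Those of mothers 2, 3 and 5 were 8.25, 8.58 and 7.20. The calls of rbpms2b and pl10 were lost in 12 and 8 of the settings tried. The values of piwil1, the core Piwi protein, differed by 0.09 and those of the translational regulators cpeb1b and cpeb4 by -0.09 and 0.01, without passing the test. Of 5 more members on the mother-specific list, the oocyte transcription factor gene lhx8a was higher by 0.32 and the maternal linker histone gene h1m lower by 0.79. That made 40% called, with 73.2% over that whole list. For h1m the clutch means were 11.58, 10.89 and 11.53 for mothers 1, 2 and 5, 9.85 for mother 4 and 8.58 for mother 3, so mother 4 lay between her sisters.

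Cytosolic ribosomal protein genes, which a cell needs in matched amounts, were called in 28.4% of cases, below the 33.8% over all expressed transcripts. Of 67 members, 18 were higher, 1 was lower and 48 did not pass the test, and their median was 0.073 against 0.006 over all expressed transcripts. By direction, 18.4% of all expressed transcripts were higher and 15.4% lower. The counts depended on the scale. They were 7 higher and 2 lower with a median of -0.024 when processed signals were scaled to the 75th percentile, 3 higher and none lower after loess of Cy3 over Cy5, and 24 higher and none lower when arrays were centred on the median. The exception in size was rpl36, which was apart, with eggs at 13.69, 13.78, 13.76, 13.73 and 13.64 against 12.56 to 13.39 in the others, a difference of 0.64.

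Mitochondrial genes went both ways. Of 28 mitochondrial ribosomal protein genes outside the mother-specific list, 6 were higher and 8 lower with a median of -0.088, that is 50% called against 33.8% over all expressed transcripts. Of these, mrps25 was apart and lower (-0.73), with 5 eggs at 9.67 to 10.22 against 10.34 to 11.36, and mrpl21 was apart and higher (0.30), at 12.96 to 13.11 against 12.24 to 12.89. Among 5 more from the mother-specific list, 4 were higher and 1 lower (100% called against 73.2% over that whole list). Of these 5, mrps15 was apart and higher (0.36), at 12.11 to 12.26 against 11.31 to 12.04. Of 48 genes of oxidative phosphorylation, 10 were higher and 9 lower (39.6% called) with a median of 0.058, and none was apart, while ndufab1b from the mother-specific list, an acyl carrier subunit of complex I, was apart and higher (0.56).

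The proteasome, which degrades tagged proteins, held 4 members that were apart and higher. All 4 came from the mother-specific list, in which 5 of 7 proteasome genes were higher, none was lower and the median was 0.477. The 71.4% called compares with 73.2% over that whole list. The gene psmd4b, encoding a ubiquitin receptor of the regulatory particle, measured 9.20, 9.26, 9.43, 9.41 and 9.22 against 7.56 to 8.64, a difference of 1.08. The core subunit genes psma2 and psma4 were higher by 0.50 and 0.48 and the ATPase gene psmc1b by 0.35. The 8 proteasome genes named outside that list did not share the direction, with 1 higher, 3 lower and a median of -0.026. That made 50% called, with 33.8% over all expressed transcripts.

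**Figure D4:**
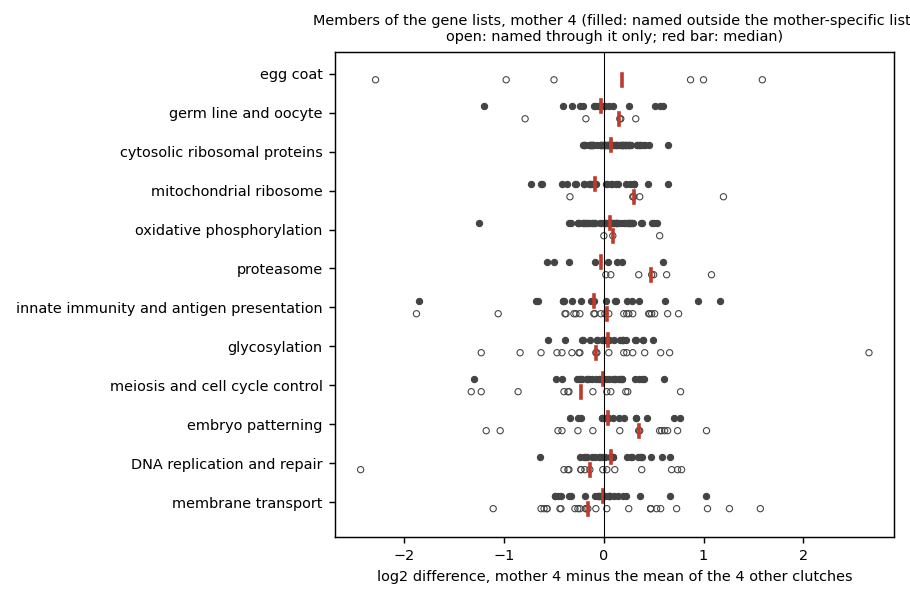
Log2 difference of mother 4 from the mean of the 4 other clutches for each measured member of the gene lists, 1 line of points per list. Filled points are members named outside the mother-specific list, open points are members named only through it, red bars are the list medians, and most members lie within 1 log2 unit of 0.

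In the lists on defence and on sugar chains, members again went both ways. Of 19 genes of innate immunity and antigen presentation outside the mother-specific list, 6 were higher and 5 lower (57.9% called against 33.8% over all expressed transcripts), and of 22 on it, 10 were higher and 5 lower (68.2% against 73.2% over that list). Apart and higher were ftr78, a fish TRIM protein gene (0.51), and gig2p, of a virus-induced fish family (0.46). Of the glycosylation genes, 7 of 25 were higher and 2 lower outside the mother-specific list (36% called), and 6 of 18 were higher and 7 lower on it (72.2%), with mgat3a, which adds a bisecting N-acetylglucosamine, apart and higher (0.66).

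Genes of meiosis and the cell cycle had 5 of 30 members higher and 3 lower outside the mother-specific list (26.7% called against 33.8% over all expressed transcripts), and 2 of 12 higher and 6 lower on it (66.7% against 73.2% over that list). The centromere gene cenpp was apart and lower (-0.86), with eggs at 8.18 to 8.52 against 8.83 to 9.67. Of the DNA replication and repair genes, 8 of 26 were higher and 1 lower outside that list (34.6% called), and 4 of 15 were higher and 6 lower on it (66.7%). The lower one of the 26 was the interstrand crosslink repair nuclease gene fan1, which was apart (-0.64), and ogg1, the glycosylase for oxidized guanine, was apart and higher (0.68) and present on none of the 19 other arrays, so that it counted as expressed only through mother 4.

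Among genes of embryo patterning, 3 of 17 were higher and 2 lower outside the mother-specific list (29.4% called against 33.8% over all expressed transcripts), and 8 of 15 were higher and 5 lower on it (86.7% against 73.2% over that list). The signalling gene wnt4a was apart and higher (0.64), and the transcriptional co-regulator gene cited2 was apart and lower (-1.04), with eggs at 9.37, 9.52, 9.76, 9.63 and 9.36 against 9.78 to 11.69. The Nodal gene ndr1, an inducer of mesoderm and endoderm, was higher by 1.03 but overlapped, its difference being 1.80 from mother 2 and 1.37 from mother 5 and 0.57 and 0.39 from mothers 1 and 3. Of the membrane transporters, 3 of 29 were higher and 7 lower outside the mother-specific list (34.5% called) and 10 of 25 were higher and 12 lower on it (88%), with the mitochondrial glycine carrier gene slc25a38a (1.57) and the amino acid transporter gene slc43a2b (1.04) apart and higher. The probes of wnt4a, slc43a2b and ftr78 were present on 1 of the 19 other arrays each and also counted as expressed only through mother 4. The 5 slc25a38a eggs lay at 10.22 to 10.54 against 7.67 to 9.62.

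Genes taken as markers of cells that could adhere to a squeezed egg were measured in small numbers. Of 3 follicle and steroid cell genes, cyp11a1 was higher by 0.39 and hsd3b1 by 0.71, while lhcgr had a value of -0.40 with no mother 4 egg well above background. None was apart. The cyp11a1 clutch mean of 11.66 for mother 4 lay between those of mother 5 (11.95) and mothers 3, 1 and 2 (11.45, 10.97 and 10.71), and those of hsd3b1 lay between 7.57 and 8.21 except in mother 3 (6.25). Of 9 genes typical of other tissues, 2 were higher and 4 lower. That made 66.7% called both for the 6 outside the mother-specific list and for the 3 on it. The shares were 33.8% over all expressed transcripts and 73.2% over that list. Only crygmx, a lens crystallin gene, was apart (-0.89), and its probe was present on no array of mother 4. No blood marker could be named among the expressed probes. The part of such cells in the differences was not tested.

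Many of the larger differences were not particular to mother 4 but were levels she shared with some of her sisters. For the 510 transcripts that passed the test with at least a 2-fold difference, the widest step in the ordered clutch means put mother 4 alone on her side for 130 higher and 59 lower transcripts. In 38 higher and 62 lower ones she stood together with mothers 1 and 5 against mothers 2 and 3. The clutch with the mean nearest to hers was mother 5 for 178 of the 510 (34.9%), mother 1 for 167 (32.7%), mother 2 for 98 (19.2%) and mother 3 for 67 (13.1%).

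Named examples of such shared levels spanned several pathways. The DNA polymerase delta subunit gene pold3 had the same mean of 6.49 in mothers 4 and 1, near the floor of the scale. Values there cannot show whether the RNA levels were equal. The means were 9.99, 9.84 and 9.41 for mothers 2, 3 and 5, which gave a difference of -2.44. The glycosyltransferase gene gbgt1l4 was high in mothers 4 and 2, with means of 12.57 and 12.70, against 9.56, 8.58 and 8.79 in mothers 1, 3 and 5, a difference of 2.66. The complement gene c7b (-1.85) was as low in mothers 1 and 5 as in mother 4, with pairwise differences of -0.04 and -0.29 that did not pass limma's test, and lay 3.31 and 3.75 below mothers 2 and 3. For the kinase gene cdk5 and the complex I gene ndufb11 the probe was not well above background in any egg of mother 4, and the levels were at least 2.25-fold and 2.17-fold lower than the mean of the sisters, again through mothers 2 and 3.

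The named transcripts that were apart were not evenly spread over the genome. Of 2564 named and expressed transcripts with a Zv9 position, 221 were apart in mother 4 (8.62%). The share was 23.6% on chromosome 22 (26 of 110) and 22% on chromosome 2 (27 of 123), and on chromosome 25, where it was 16.4%, all 12 were higher. On chromosomes 23, 1 and 19 it was 1.65%, 1.71% and 2.0%. On chromosome 2 the other mothers had 0.813% to 7.32% of these transcripts apart, and on chromosome 22 they had 1.82% to 14.5%. Chromosome 22 was not high in mother 4 alone. Mother 1 had 11.8% there against 2.46% over all chromosomes, and mother 3, at 14.5%, was also above her own share over all chromosomes. Mothers 2 and 5 were below theirs, with 3.64% and 1.82% against 12.7% and 4.52%. The clutch of mother 2 was uneven too, with 28.6% on chromosome 14 and 27.2% on chromosome 7. Leaving out the mother-specific list lowered the share of mother 4 to 4.31% of all placed transcripts. Her shares were then 14.3% on chromosome 2 (11 of 77) and 10.4% on chromosome 22 (7 of 67). On chromosome 25 her share was then 2.63% (1 of 38), below that over all chromosomes. Among the leading genes, si:dkey-253d23.7, si:dkeyp-20e4.8, hapln4, si:dkey-78l4.14 and ctskl lie on chromosome 22. These shares are a description, and no test of position was made.

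**Figure D5:**
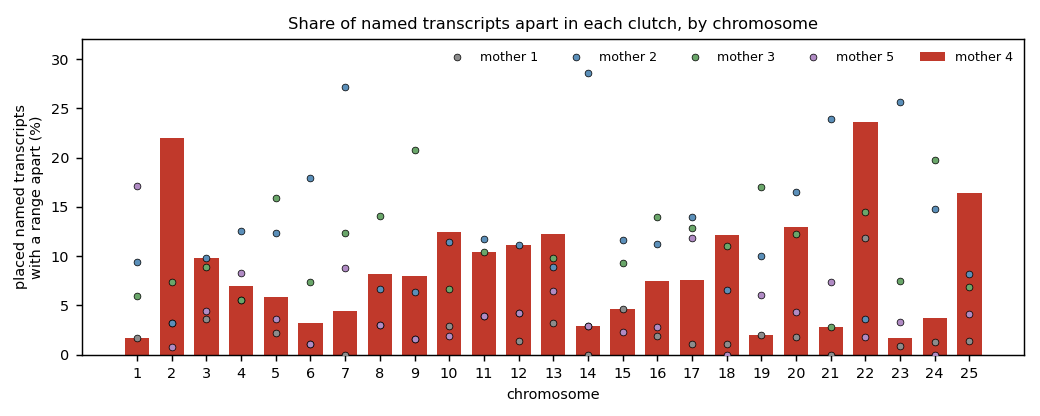
Percent of the named, expressed and placed transcripts of each Zv9 chromosome that were apart in 1 clutch, with bars for mother 4 and points for each of the 4 other mothers. Chromosomes 22 and 2 carry the tallest bars, at 23.6% and 22% against 8.62% over all chromosomes.

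Some neighbouring probes may have reported on the same RNA. A run of 4 on chromosome 10, near 8.09 to 8.12 Mb, held si:ch211-251f6.7 (1.31), zgc:136254 (1.43), si:ch211-251f6.6 (1.31) and si:ch211-251f6.3 (1.34), all apart and higher. Their probes are listed as possibly binding each other's transcripts, and their values correlated at 0.978 to 0.995 across the 24 eggs. They were therefore not taken as 4 separate observations. Several other leading probes are also listed as possibly binding further transcript identifiers, among them si:dkeyp-20e4.8 (9), zgc:136410 (6) and cecr1a (4). The probe of si:dkeyp-20e4.8 (2.35) may bind transcripts of zgc:171717 and si:ch211-226h8.8, whose own probes differed by 0.32 and 0.57. The part of such binding in the differences was not tested. Of 27 symbols measured by more than 1 expressed probe, 21 gave the same call with each probe. In 5 of them at least 1 probe was apart, and in 2 all were, of which mettl20 measured 1.23 and 1.26. The 2 probes of cst14a, a cystatin gene, disagreed in direction, at -0.41 and 0.70.

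Transcripts were also counted by presence alone. A total of 118 probes were called present on arrays of mother 4 and on none of the others, 50 of them on all 5. Any of these that counted as expressed did so only through mother 4. Of the 26501 expressed probes, 916 were present on no array of mother 4, and 7 of the 916 were present on all 19 other arrays. The arrays of mother 4 had 23981 to 25138 probes present against 17983 to 25309 on the others. The part of array brightness in these counts was not tested, and no such counts were made for the other mothers. Of the 838 transcripts that were apart, 575 carried no symbol in the lists used, among them MAD_Dr_004_182777 with a difference of 3.37, MAD_Dr_004_171293 with 2.74, MAD_Dr_004_140484 with -3.20 and MAD_Dr_004_175540 with -3.01, so that differences as large as those of the leading named genes remain without a gene name here.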

How the data were processed

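Single-egg RNA was polyadenylated, depleted of ribosomal RNA and amplified, and its Cy3 label was read beside a common reference in Cy5 on 24 Agilent arrays (4 per slide, 6 slides). Signals were extracted with Feature Extraction 10.7.3.1 per the submitters' processing notes. The deposited values are log2 Cy3 signals that the authors quantile normalized. The Cy3 and Cy5 intensity columns deposited for each array were used for presence calls, background marks, the reference channel and alternatives. Control spots (4848 per array) and 87220 further probes outside the main set of 88754 were left out. The study also removed genes whose signals it could not normalize and genes with an extreme value in a single sample. No such removal was made here, so transcripts of that kind may be among those counted. Their part in the differences was not tested. A probe was called present where its intensity lay above the threshold set by the study's variance rule, and expressed where present on at least 4 arrays (26501). The values are set by brightness, and the number of arrays limits their precision.

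Means of the 5 mothers were fitted with limma 3.58.1 in R 4.3.3, and mother 4 was contrasted with the mean of the 4 other clutch means, with Benjamini-Hochberg adjustment over all expressed transcripts. A transcript was called apart where all 5 eggs lay above or below all 19 others, with no test of its own. For a probe not well above background in any egg of mother 4, the fold is a bound, the mean of the others over the higher of the probe's own value and the lowest signal well above background on each array. Simulated data with 50 changed transcripts each at 1.2, 1.5, 2 and 4-fold gave 11, 41, 46 and 50 recovered calls and 11 false ones. The simulation gave the other clutches equal means and independent noise for each egg, unlike the measured eggs. It checks the procedure and gives no error rate for the calls made here. Symbols and Zv9 positions came from the study's lists, whose columns of the authors' own statistics were not used. Named are the 15 largest differences in each direction among transcripts that were called and apart, list members that were called and apart, all germ line, egg coat and marker members (86 genes), and further list members chosen after their values were seen as examples of shared levels. The gene lists and the clutch were chosen with earlier results of these data known. A gene that met this rule is not reported here.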

Additional observations from a re-analysis of the deposited data

Results flagged for a closer look

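Within the clutches of 4 or 5 eggs, a single egg stood apart from its sisters for some of the 30 leading genes and related values. Dixon's criterion at the 95% level was passed by 12 of 160 clutch values tested (7.5%), where chance gives about 1 in 20, and each value below is a log2 Cy3 signal. In mother 4 herself, si:dkey-253d23.7 was highest in egg 3 at 11.36, with the other 4 eggs at 10.87 to 10.99, and parn was lowest in egg 4 at 13.09, with the others at 13.40 to 13.51. In mother 1, si:ch211-37p17.5 was lowest in egg 5 at 6.28 (others 6.45 to 6.48), gltpb was lowest in the same egg at 8.24 (8.91 to 9.13), si:dkey-253d23.7 was highest in egg 1 at 8.31 (7.78 to 7.92), parn was lowest in that egg at 14.35 (14.56 to 14.64), and zgc:65895 was highest in egg 4 at 9.95 (9.52 to 9.64). In mother 2, si:ch211-37p17.5 was lowest in egg 3 at 6.67 (6.8 to 6.84), wu:fi42e03 was lowest in the same egg at 9.98 (10.46 to 10.54), and bglap was highest in egg 5 at 8.72 (7.35 to 7.64). In mother 3, cecr1a was lowest in egg 4 at 8.17 (8.71 to 8.78), and in mother 5, si:rp71-45k5.2 was highest in egg 4 at 8.71 (8.02 to 8.12). The 2 values nearest to closing the gap to mother 4 were those of zgc:65895 and bglap, and in both genes all 5 eggs of mother 4 were still higher.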

How the results depend on the processing

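Among the 71 named genes that passed the test, 41 kept their call and direction under every setting tried. None of the 86 passed it in the opposite direction. The calls lost most often were those of try (15 settings), rbpms2b (12), cyp11a1 (9) and pl10 (8). The number of higher transcripts was 8483 with arrays centred on the median and 3184 centred on the median of the expressed transcripts (an alternative chosen after seeing the data). It was 2753 for probes present on all 24 arrays. With the eggs of the other mothers pooled as 1 group and each egg weighted equally, it was 2652. In this pooled setting the differences among the 4 other clutches count toward the spread. The number lower was 199 with median centring, 2668 for probes on all 24 arrays (where fewer probes were tested) and 1761 with pooled eggs. It was 2363 after loess and 2645 at an adjusted p of 0.01. The 2-fold counts were 1045 higher and 804 lower on processed signals, 3885 and 75 with median centring, and 122 and 88 on all 24 arrays, and 546 were lower with centring on the expressed transcripts. Apart and higher were 308 with median centring, 316 with centring on the expressed transcripts, 260 on all 24 arrays, 800 without mother 1 and 756 without mother 5. Apart and lower were 26 with median centring, 177 after loess, 618 without mother 1 and 545 without mother 5. The 2-fold calls against mother 1 were 1719 on processed signals, 11662 with median centring, 954 with centring on the expressed transcripts and 269 on all 24 arrays. They were 3256, 2903 and 641 against mother 2, on processed signals, with median centring and on all 24 arrays. On processed signals and on all 24 arrays they were 3188 and 541 against mother 3, and 1508 and 322 against mother 5. With a mother or an egg left out, the apart counts can only stay or rise, by their definition. The causes of the other changes were not tested. Leaving out 1 egg at a time gave 4075 to 5304 higher and 3222 to 4477 lower, 298 to 315 and 187 to 209 at 2-fold, 502 to 703 and 343 to 428 apart, and 542 to 694, 1314 to 1528, 1283 to 1348 and 550 to 584 2-fold calls against mothers 1, 2, 3 and 5. The egg number as a replicate block gave 4800 higher and 3993 lower. Eggs of the same number in different clutches correlated with a median of 0.0627 (-0.526 to 0.662) in their deviations from the clutch mean. For different numbers the median was -0.0143 (-0.659 to 0.775). Whether eggs of the same number shared anything more was not tested. Settings that change the model alone give no value for apart transcripts. Beyond the scaling, 4 other mothers and 5 eggs limit what can be said of mother 4.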
